A study of Mus musculus with 4 samples.

Results

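Interferon-responding neutrophils were neutrophils of the mouse lung in which several interferon-stimulated genes were detected at once. A cell barcode was taken as a neutrophil when S100a8 and S100a9 made up at least 1% of its UMIs (unique molecular identifiers, each standing for 1 captured RNA molecule), when Csf3r, Il1r2 and Retnlg together had at least 2 UMIs, and when the macrophage genes C1qa, C1qb and C1qc together had at most 3. It was taken as interferon-responding when at least 3 of the 5 genes Rsad2, Ifit1, Ifit3, Isg15 and Oasl2 were detected. These thresholds selected 707 cells of 3733 neutrophils, among 15793 cells that passed the filters on quality.

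The cells came from the lungs of LAIR1KO mice and of wild-type (WT) mice, each either normal or bearing B16/F10, a mouse melanoma line. LAIR1 is an inhibitory receptor for collagen, and the series asked how its loss changes monocytes and macrophages of the lung. Each of the 4 groups was a single 10x Genomics 3′ library of 3 animals marked with hashtag antibodies, so that library and group cannot be told apart. The labels give no strain, age or way of making the knockout, and no untreated comparison beyond the normal lungs.

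The neutrophils of WT normal lung were male by their transcripts, with 0 Xist and 426 Ddx3y UMIs, whereas those of the other 3 libraries had 193 to 247 Xist and at most 1 Ddx3y UMI. Comparisons with WT normal lung therefore also compared the sexes. The libraries held 25216301 to 28034709 gene UMIs. Between libraries 27 barcode sequences recurred, 1 of them among neutrophils. As a check of the genotype labels, Lair1 had 0 UMIs in the 238 interferon-responding neutrophils of LAIR1KO normal lung and 0 in the 188 of LAIR1KO tumor-bearing lung. It had 39 UMIs in the 98 interferon-responding neutrophils of WT normal lung and 75 in the 183 of WT tumor-bearing lung. These Lair1 counts cover all barcodes, including those with several hashtags.

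Many of the 707 barcodes carried more than 1 hashtag. A second hashtag can mark a droplet with cells of several animals, and 423 interferon-responding barcodes (59.8%) had one, against 710 of 3026 other neutrophil barcodes (23.5%). A doublet caller that reads gene counts marked 17 of the 423, and whether these barcodes held several cells was not tested. Barcodes with more RNA reach 3 detected genes more easily: the median was 4520 UMIs in all interferon-responding neutrophils and 1715 in the other neutrophils. Among barcodes with exactly 1 hashtag the medians were 1907 and 1643 UMIs. Unless stated otherwise, the values that follow come from the 241 interferon-responding and 1981 other neutrophils with 1 hashtag, summed per animal and scaled to UMIs per 1000000 (CPM). In these interferon-responding neutrophils Lair1 stood at 0, 27.9 and 0 CPM in the WT normal animals. In the WT tumor-bearing animals it stood at 21.1, 126 and 80.8 CPM. Those values rest on 14, 14 and 6 cells in WT normal and 24, 18 and 15 in WT tumor-bearing animals. A few UMIs can set them. The other neutrophils had 6.97, 27.5 and 32.6 CPM of Lair1 in WT normal and 22.4, 22.9 and 44.1 CPM in WT tumor-bearing animals. Lair1 was at 0 in both classes in each LAIR1KO animal.

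Type I interferons are secreted proteins that bind a receptor of the subunits IFNAR1 and IFNAR2. The kinases JAK1 and TYK2 then activate transcription factors, which join IRF9 and bind interferon-stimulated response elements before the genes they switch on. Neutrophils, the short-lived phagocytes that patrol the lung capillaries in large numbers, carry this receptor, and a fraction of them with interferon-stimulated transcripts has been described in blood and tissues of mice and of humans.

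The letters of the response element stood before 4 of the 5 rule genes and are shown for 3 of them and for 2 genes that the rule did not use. The sequences are the 250 bases before the annotated start in RefSeq promoters of build GRCm38.p6, written along the strand of the gene, and the capitals mark matches to GAAANNGAAA on either strand.
Rsad2, chr12:26456453-26456702, minus strand: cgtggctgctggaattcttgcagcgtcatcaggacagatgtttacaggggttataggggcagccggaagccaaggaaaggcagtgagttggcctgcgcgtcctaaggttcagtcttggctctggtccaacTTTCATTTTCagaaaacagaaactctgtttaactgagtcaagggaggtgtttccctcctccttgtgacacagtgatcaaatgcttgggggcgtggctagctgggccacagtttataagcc
Ifit1, chr19:34640639-34640888, plus strand: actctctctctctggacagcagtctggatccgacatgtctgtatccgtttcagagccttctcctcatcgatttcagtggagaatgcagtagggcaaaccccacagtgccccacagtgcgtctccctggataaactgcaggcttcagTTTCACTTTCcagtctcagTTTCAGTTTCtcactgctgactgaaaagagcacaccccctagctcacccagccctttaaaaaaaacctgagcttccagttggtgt
Isg15, chr4:156200819-156201068, minus strand: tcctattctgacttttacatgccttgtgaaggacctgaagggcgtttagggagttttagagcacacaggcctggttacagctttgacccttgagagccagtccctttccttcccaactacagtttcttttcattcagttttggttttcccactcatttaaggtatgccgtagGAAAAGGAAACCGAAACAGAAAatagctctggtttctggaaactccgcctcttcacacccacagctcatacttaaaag
Slfn5, chr11:82951852-82952101, plus strand: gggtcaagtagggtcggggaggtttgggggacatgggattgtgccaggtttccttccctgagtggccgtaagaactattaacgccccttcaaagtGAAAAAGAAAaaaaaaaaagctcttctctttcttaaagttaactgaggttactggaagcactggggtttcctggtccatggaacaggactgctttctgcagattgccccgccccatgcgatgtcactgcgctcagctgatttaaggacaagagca
Ddx60, chr8:61927837-61928086, plus strand: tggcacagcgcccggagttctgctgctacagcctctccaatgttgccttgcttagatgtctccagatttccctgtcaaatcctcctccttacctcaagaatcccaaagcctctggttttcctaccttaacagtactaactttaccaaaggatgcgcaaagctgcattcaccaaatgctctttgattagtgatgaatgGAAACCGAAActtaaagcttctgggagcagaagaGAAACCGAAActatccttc

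The first base of the match stood 120 bases before the start in Rsad2, 104 and 85 in Ifit1, 155 in Slfn5, and 53 and 19 in Ddx60. In Isg15 3 overlapping matches began 78, 72 and 66 bases before the start and form 1 uninterrupted run. Of all 32851 promoters in the RefSeq table, 978 (2.98%; 3.46% of 27025 genes) held a match in this window, as did 4 of the 5 rule genes, Oasl2 being the one with none. Among the 40 genes that were higher in interferon-responding neutrophils (below), 33 had an entry and 11 of them (33.3%) held a match. A match of letters is a description and does not show that a factor was bound.

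The 5 interferon genes chose the cells, so their values are given as a description only. Rsad2 encodes viperin, a radical enzyme with antiviral activity. Its level was 620, 1284 and 2518 CPM in the lowest, median and highest animal for interferon-responding neutrophils, against 45.3, 85.3 and 226 CPM for other neutrophils. Ifit1, whose product binds viral RNA, averaged 464 ± 311 CPM in interferon-responding neutrophils and 7.16 ± 6.07 CPM in the others (SD, n = 12 animals). Ifit3, its partner, averaged 159 ± 90.6 CPM against 1.15 ± 1.48 CPM, and reads of Ifit3 cannot always be told from those of its near-identical copy Ifit3b. The ubiquitin-like modifier gene Isg15 averaged 2177 ± 614 CPM against 628 ± 168 CPM, and Oasl2, of the oligoadenylate synthetase-like family, 902 ± 207 CPM against 233 ± 69.9 CPM. The genes differed in how selective they were. A UMI of Ifit1 was present in 37.3% of interferon-responding and 0.909% of other neutrophils, whereas Isg15 was detected in 98.3% and 44.2% and Oasl2 in 92.9% and 28.9%.

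The threshold cut through a gradual distribution. Of the neutrophils with 1 hashtag, 758 had none of the 5 genes, 797 had 1, 426 had 2, 161 had 3, 54 had 4 and 26 had all 5. Thus the 161 cells just inside the threshold made up most of the 241, and 426 cells stood just outside it. The median number of UMIs of the 5 genes together was 8 with 3 genes detected and 4 with 2.

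The cells carried neutrophil markers that the rule did not use. Cxcr2, the chemokine receptor that draws neutrophils from the blood, stood at 780 CPM in interferon-responding neutrophils, 745 CPM in other neutrophils and 4.03 CPM in all other cells of the 4 libraries. Hdc, the histidine decarboxylase of neutrophils and basophils, was detected in 97.9%, 97.5% and 12.0% of these cells. Ly6g, a surface protein used to sort mouse neutrophils, was sparse in all of them, with 15 UMIs in the 241 interferon-responding neutrophils. Markers of other cell types were low. All 5 dendritic markers were at 0 UMIs in interferon-responding neutrophils, as were Cd3e, Trbc2, Nkg7 and Ncr1 of T and NK cells, Ms4a1 of B cells, and Mcpt8, Cpa3 and Ms4a2 of mast cells and basophils. The 7 monocyte markers had 3.78 UMIs per 10000 in interferon-responding neutrophils and 3.09 in the others, and the 4 macrophage markers 2.42 and 2.79.

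Epithelial and fibroblast transcripts had lower medians in interferon-responding neutrophils. The 3 epithelial markers Sftpc, Scgb1a1 and Epcam had a median over animals of 6.88 UMIs per 10000 in interferon-responding and 23.2 in other neutrophils, but their range reached 281 per 10000 in interferon-responding neutrophils of 1 animal with a WT tumor-bearing lung. Pooled over animals the epithelial markers stood at 28.3 and 35.3 per 10000, and in WT tumor-bearing lung at 117 and 38.0. The other libraries had the lower pooled value in interferon-responding neutrophils. Fibroblast markers had medians of 0.166 and 1.40 per 10000. The 3 endothelial markers had medians of 0.723 in interferon-responding and 0.862 in other neutrophils. Pooled over animals they stood at 1.72 and 0.952, and in LAIR1KO normal lung at 2.41 and 0.981, with a highest animal at 11.4 in interferon-responding neutrophils. The part of such transcripts in the results below was not tested.

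Further interferon-stimulated genes were among those higher in interferon-responding neutrophils than in the other neutrophils of the same animals. The test was edgeR's quasi-likelihood test on summed UMIs with the animal as a block and Benjamini-Hochberg adjustment over all genes. Of 1413 genes that passed the filter on low counts and were not used by the rule, 40 were higher in interferon-responding neutrophils (2.83%) and 2 were lower (0.142%) at an adjusted p under 0.05. Of the 40, 20 were among the 36 interferon-related genes of the lists that were tested, 20 were outside those lists, and 23 were higher in all 12 animals. The median log2 fold change over all 1413 genes was 0.00.

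**Figure D1:**
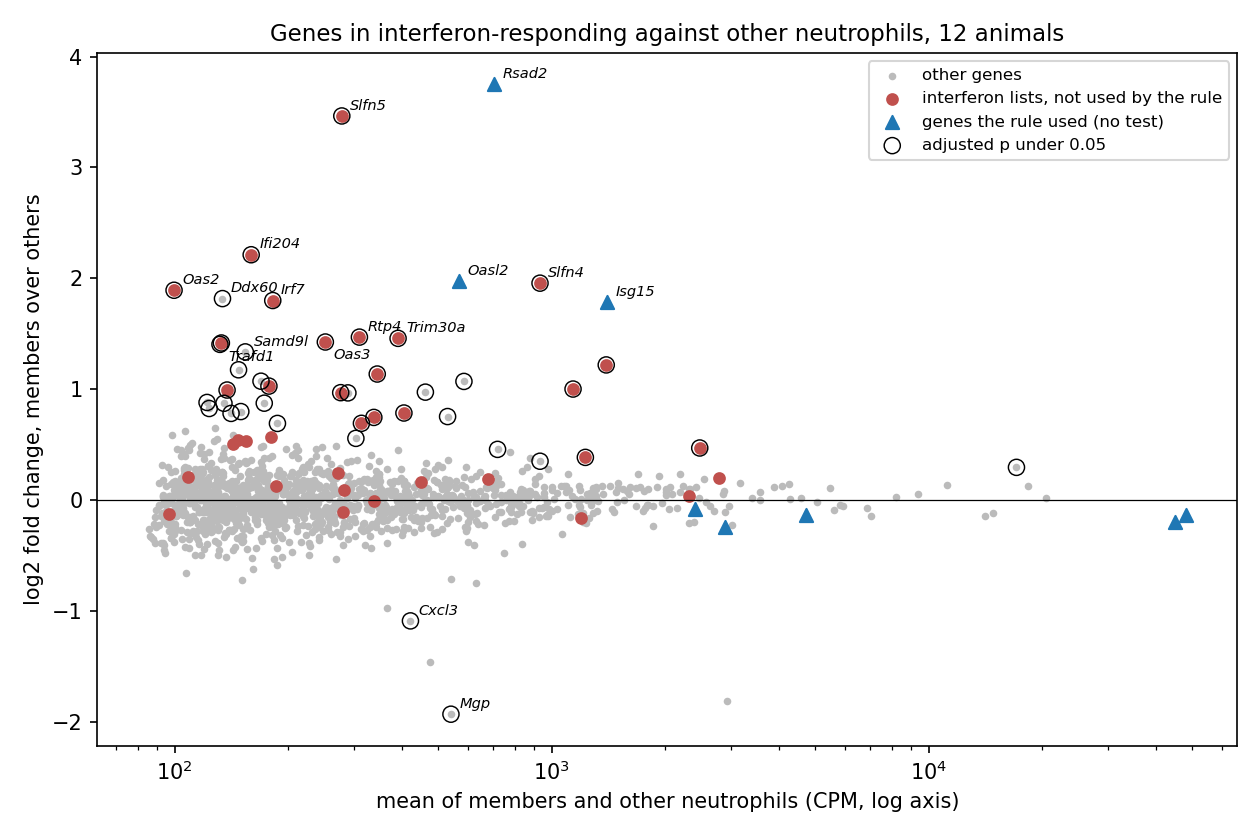
Log2 fold change of interferon-responding over other neutrophils (y axis) against the mean level in CPM (x axis, log scale) for each gene tested; red points are interferon-related genes that the rule did not use, blue triangles genes that it used, and black rings genes with an adjusted p under 0.05. The red ringed points lie above 0, with Slfn5 at 3.46, while Mgp and Cxcl3 are the ringed points below 0.

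Interferon ligands themselves were nearly absent from neutrophils. In the whole data set 16 of 21 ligand genes had 0 UMIs, and neutrophils held 5 of all ligand UMIs, 4 of Ifnb1 and 1 of Ifng. Cells of all types held 875 UMIs of Ifnb1, the gene of interferon beta, and 49 of Ifng. By library, Ifnb1 had 136 UMIs in LAIR1KO normal, 208 in LAIR1KO tumor-bearing, 122 in WT normal and 409 in WT tumor-bearing lung. No ligand gene could be tested within neutrophils.

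The receptor genes did not pass the test. Of the 9 genes for interferon receptors and their kinases 7 were tested, none passed, and their log2 fold changes ran between -0.24 and 0.12. Ifnar1 stood at 0.00 ± 0.21 and Ifnar2 at 0.12 ± 0.22 (log2 ± SE).

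Genes of the factors that carry the signal were higher in part. Of 10 such genes 6 were tested and 3 passed, all higher, among them Irf7 and Irf9. Irf7, the regulator that amplifies interferon production, had 134, 290 and 452 CPM in the lowest, median and highest animal for interferon-responding neutrophils, against 25.7, 77.6 and 141 CPM for the others, a 3.48-fold difference (log2 1.80 ± 0.20 SE, adjusted p = 1.2e-06). Irf9, a DNA-binding subunit of the complex at the response element, was 1.99-fold higher (adjusted p = 0.00052). The tested members that missed the threshold were Irf1 (log2 0.21), Irf2 (0.54) and Stat3 (-0.01). Neither of the 2 tested genes that restrain the signal, Socs3 and Ptpn6, passed, at -0.11 and 0.09.

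The largest group was the antiviral effectors. Of 49 genes of this list with a row in the files, 19 passed the filter and 13 were higher, with a median log2 fold change of 1.0 over the 19. Slfn5, of the Schlafen family of growth and antiviral regulators, had 215, 466 and 979 CPM in the lowest, median and highest animal for interferon-responding neutrophils and 16.9, 40.3 and 103 CPM for the others. The 2 ranges did not overlap, and the difference was 11-fold (log2 3.46 ± 0.25 SE, adjusted p = 1.5e-09). Slfn4, a Schlafen gene of mouse myeloid cells, averaged 1474 CPM in interferon-responding neutrophils and was 3.88-fold higher in them, again without overlap between 909 to 2067 CPM and 154 to 589 CPM. Slfn1 was 1.72-fold higher.

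The oligoadenylate synthetases are enzymes that sense double-stranded RNA. Oas2 was 3.71-fold and Oas3 2.69-fold higher in interferon-responding neutrophils. Ifitm3, which blocks viral fusion at membranes, had 1098 to 1958 CPM in interferon-responding neutrophils and 609 to 1007 CPM in the others, a 2.0-fold difference without overlap (log2 1.0 ± 0.08 SE, adjusted p = 1.7e-08). Its relatives Ifitm1 and Ifitm2 were at log2 -0.17 and 0.03 and did not pass. Trim30a, a ubiquitin ligase gene of the mouse, was 2.75-fold higher and its neighbour Trim30d 2.04-fold, although similar sequences may share reads. Ifi27l2a, Rtp4, Isg20, Sp100 and Cd274 were 2.33-, 2.77-, 1.96-, 2.20- and 1.62-fold higher. Cd274 encodes PD-L1, the ligand that restrains T cells, and its level was 212 to 728 CPM in interferon-responding neutrophils and 154 to 408 CPM in the others.

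Of 13 sensors of nucleic acid with a row, Ifi204 alone passed the filter. This gene, a member of the mouse p200 family that includes DNA sensors, had 107, 246 and 438 CPM in the lowest, median and highest animal for interferon-responding neutrophils, against 27.9, 57.5 and 106 CPM for the others. The groups did not overlap, and it was 4.63-fold higher (adjusted p = 1.7e-08). Reads of close p200 copies may be counted with it.

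Transcripts of MHC class I and peptide loading passed in part. Of 14 genes 5 were tested and 3 were higher: H2-T23, the gene of the nonclassical molecule Qa-1, at 1.68-fold, the light chain gene B2m at 1.38-fold and H2-K1 at 1.31-fold. H2-D1 and the peptide loading gene Tapbp were at log2 0.20 and 0.25 and did not pass. Genes better known from interferon gamma gave no call: 3 of 24 were tested, namely Cd74, H2-Aa and Icam1, with log2 values of 0.17, 0.57 and 0.12. The guanylate-binding protein and immunity-related GTPase genes of that list, such as Gbp2 and Irgm1, had too few UMIs to be tested.

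Genes outside these lists were also among the 40. Ddx60, a helicase gene linked to viral RNA sensing, was 3.52-fold higher, Trafd1, of a brake on Toll-like receptor signals, 2.65-fold, and Smchd1, of a chromatin protein of the silent X chromosome, 1.96-fold. Ly6e, of a surface protein that limits viral entry, was 2.10-fold higher, with 484 to 1485 CPM in interferon-responding neutrophils and 300 to 445 CPM in the others. Each of these 4 genes was higher in 12 of 12 animals. Samd9l, Helz2, Lgals9 and Trim12c, whose reads may be shared with its copy Trim12a, were 2.52-, 2.26-, 1.84- and 1.83-fold higher. AW011738 was 1.95-fold higher, and its start lies on the opposite strand close to that of Isg15, a gene that chose the cells.

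**Figure D2:**
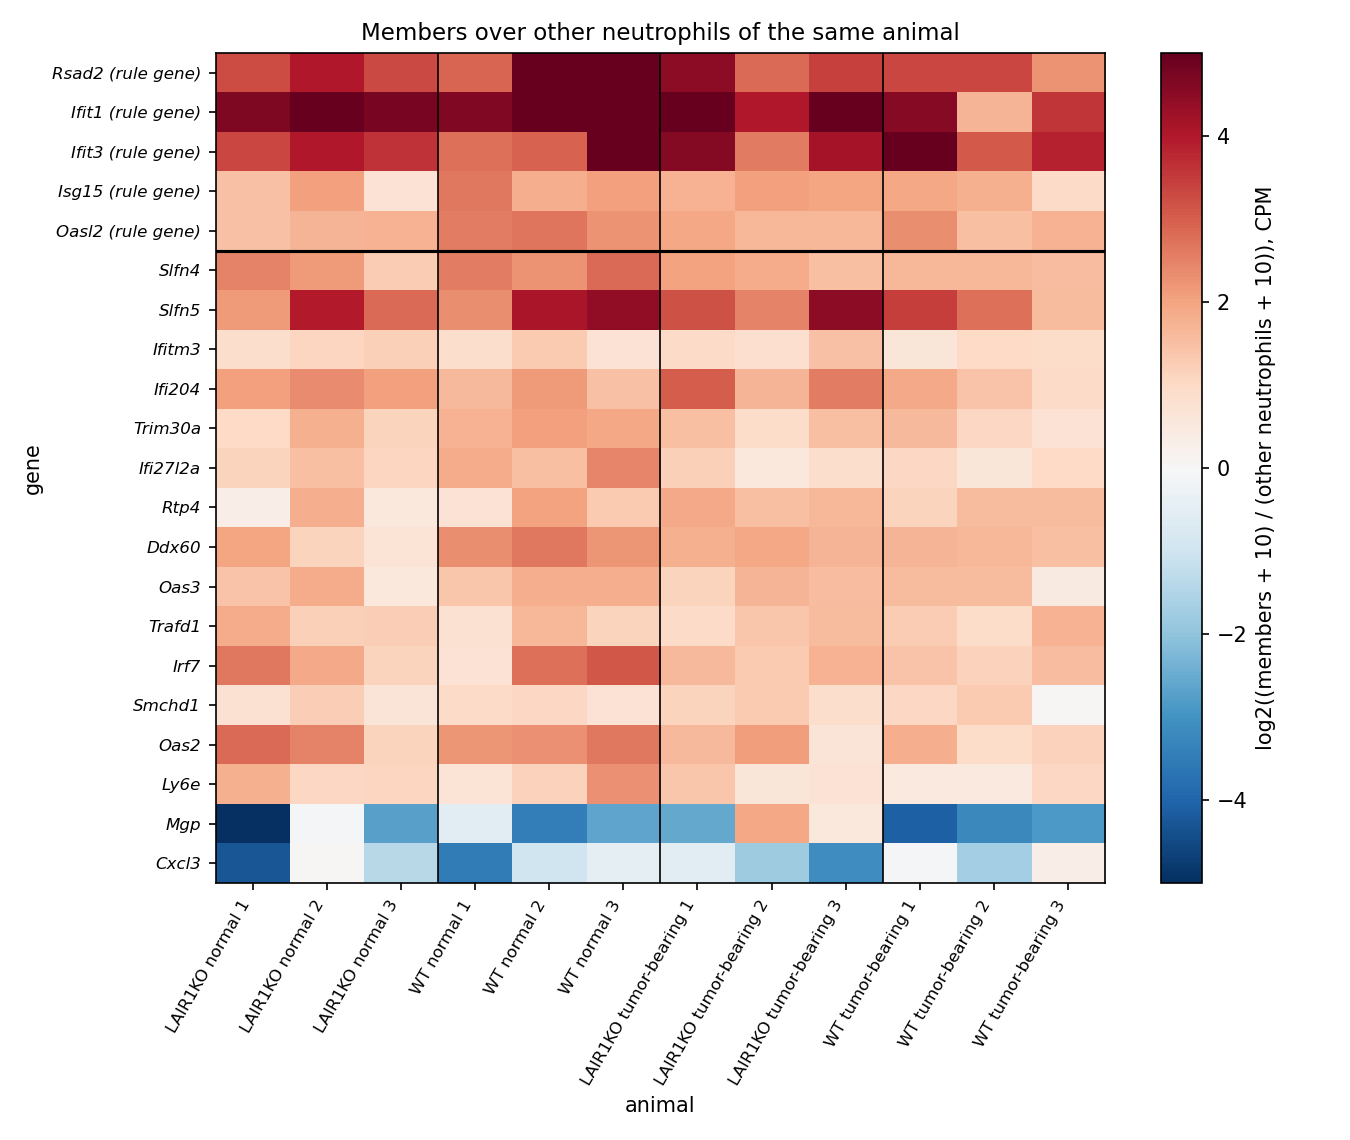
Log2 ratio of interferon-responding over other neutrophils within each animal (columns, 3 per group; 10 CPM added to each value; colours end at 5 and -5) for the 5 genes of the rule and 16 genes chosen by size and test (rows). Each of the 14 higher genes shown is above 0 in 12 of 12 animals, while Mgp and Cxcl3 are below 0 in 10 of 12.

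The 2 lower genes lost their calls in several settings. Cxcl3, a chemokine gene that recruits neutrophils through CXCR2, had 26.9, 168 and 896 CPM in the lowest, median and highest animal for interferon-responding neutrophils and 179, 516 and 1092 CPM for the others (log2 -1.09 ± 0.28 SE, adjusted p = 0.025). The ranges overlapped, and the call was lost when LAIR1KO normal replicate 3, LAIR1KO tumor-bearing replicate 3, WT normal replicate 1 or WT tumor-bearing replicate 2 was left out (log2 -1.04, -0.99, -1.0 and -1.04). Mgp, the matrix Gla protein gene of stromal and vascular cells, had medians of 82.5 CPM in interferon-responding and 683 CPM in other neutrophils (log2 -1.93 ± 0.48 SE, adjusted p = 0.024). Leaving out any of 7 animals ended its call, with log2 values of -1.86 to -1.69, as did the removal of cells marked by a doublet caller, which turned the value to 0.21. The surfactant gene Sftpc of alveolar type 2 cells moved the same way without passing (log2 -1.81 ± 0.53 SE, adjusted p = 0.071).

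Other chemokines, granule genes and maturity genes gave few calls. Of 10 tested chemokine and cytokine genes Cxcl3 was the only one past the threshold, with Cxcl2 at log2 -0.05, Ccl3 at -0.17, Il1b at 0.13 and Il15 at 0.23. Cxcl10, a classical interferon-induced chemokine, had too few UMIs to be tested. None of 9 tested granule and immaturity genes passed: Mmp9, the gelatinase of mature granules, was at log2 -0.08 ± 0.10, Mmp8 at -0.25, Lcn2 at -0.48 ± 0.18 and Cybb at 0.58 ± 0.33. Of 28 tested genes of mature and tissue neutrophils 1 passed, Fcgr4, an activating receptor for antibody, which was 1.61-fold higher. Cxcr2 and Cxcr4, the genes of recruitment and retention, were at -0.04 and 0.00. None of 9 tested inhibitory receptor genes, 6 genes of cell death, 14 immediate early and stress genes or the single tested cell cycle gene passed.

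Several of the higher genes were followed over the number of rule genes detected. Pooled over animals, Slfn5 stood at 22.5 CPM in cells with none of the 5 genes, 38.4 with 1, 72.5 with 2, 273 with 3, 792 with 4 and 1064 with all 5. Irf7 stood at 51.6, 74.9, 125, 187, 279 and 808 CPM over the same steps, and Ifi204 at 40.7, 55.4, 84.1, 170, 381 and 687 CPM. Irf9 did not climb past 3 genes, with 69.7, 83.7, 125, 185, 183 and 175 CPM, and Rtp4 had 557 CPM with 4 and 566 with 5. Mmp9 had 1570 CPM with none of the genes, 1445 with 4 and 1023 with 5, and Cxcr2 763, 865 and 592. These pooled values have no test, and the last step rests on 26 cells. The higher genes were called in these same cells, so their rise across the threshold is no separate support.

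**Figure D3:**
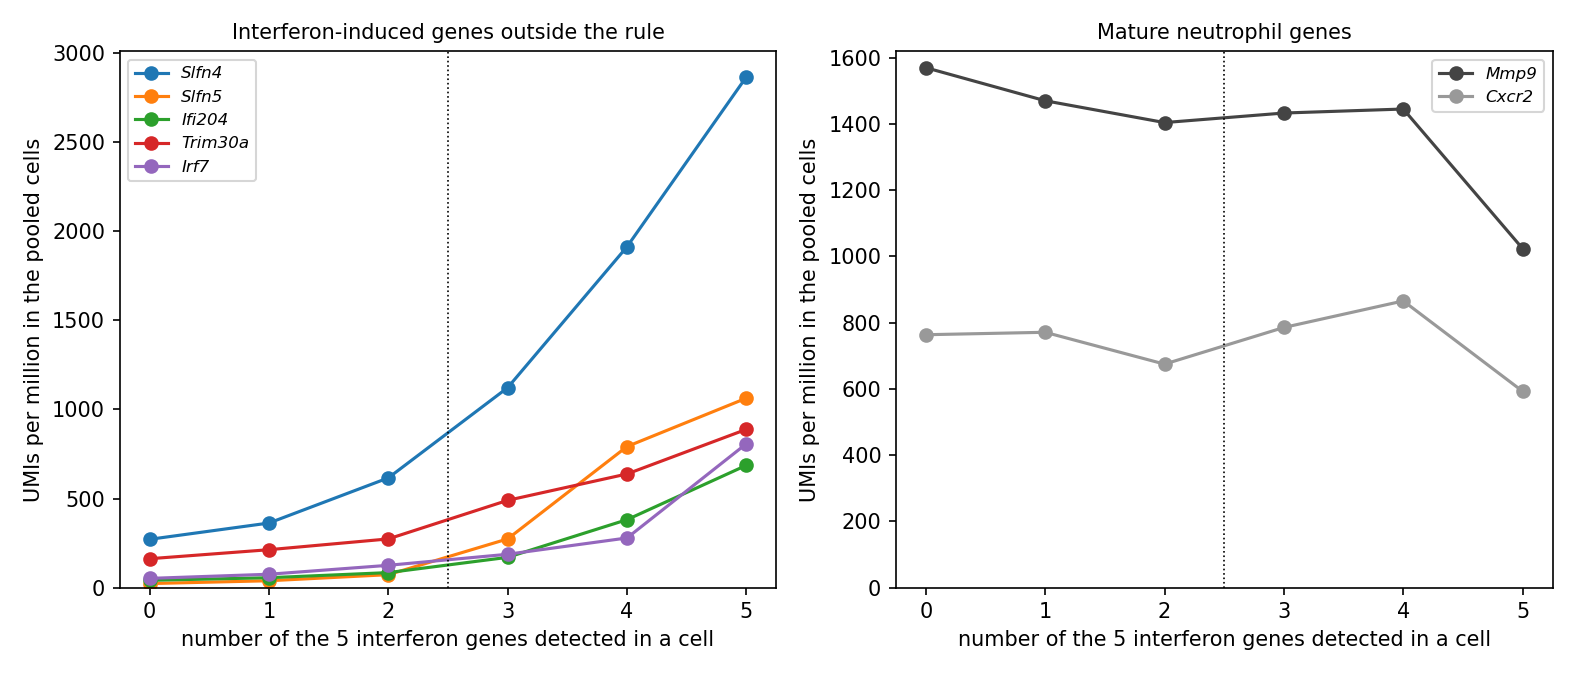
CPM in pooled neutrophils with 1 hashtag (y axis) by how many of the 5 rule genes a cell contained (x axis); the dotted line marks the threshold, with interferon-responding cells on its right. The 5 interferon-induced genes shown were not used by the rule but were among those called higher in these same cells. A rise across the line therefore follows from that choice. The 5 genes climb over the steps (left panel, Slfn4 up to 2868), while Mmp9 and Cxcr2 (right panel) stay between 592 and 1570.

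The comparison was repeated at equal depth and on separate UMIs. Cells with at least 1000 UMIs were thinned to 1000 before they were classed, and shallower cells were left out. In this setting 27 genes were higher, 22 of them among the 40 (27 of which were testable), over 10 animals with enough cells. With the UMIs of each cell split at random into 2 equal sets, cells chosen on one set by at least 2 of the 5 genes and genes tested on the other, 17 were higher, 14 of them among the 40 (27 testable). With at least 4 of the 5 genes required, 30 were higher and 20 of those were among the 40, over the 6 animals with enough cells.

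Barcodes with several hashtags that met the rule showed a weaker form of the same pattern. Slfn5 stood at 188 CPM in the 423 interferon-responding barcodes of this class and 68.9 CPM in the 710 others, compared with 483 and 41.1 CPM for barcodes with 1 hashtag. The 5 rule genes had 20.4 and 7.59 UMIs per 10000 in barcodes with several hashtags, against 48.4 and 9.66 in those with 1. Their median depth was 7156 UMIs in interferon-responding and 3992 in other barcodes. Monocyte markers had 5.18 and 5.29 UMIs per 10000 there and erythroid markers 4.74 and 12.0. The 43 interferon-responding barcodes without a hashtag call had 64.1 UMIs of the rule genes per 10000 and a median depth of 1466 UMIs.

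The share of neutrophils that were interferon-responding was then compared between groups. Over all barcodes the share was 22.8% in LAIR1KO normal lung (238 of 1044, exact Clopper-Pearson 95% interval 20.3 to 25.5), 18% in LAIR1KO tumor-bearing lung (188 of 1042, 15.8 to 20.5), 11.7% in WT normal lung (98 of 840, 9.57 to 14.0) and 22.7% in WT tumor-bearing lung (183 of 807, 19.8 to 25.7). The intervals cover counting error only. In barcodes with 1 hashtag the shares were 15.3%, 10.8%, 5.91% and 11.7% in the same libraries.

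By animal, LAIR1KO normal lungs had 21.1, 11.6 and 19.4% interferon-responding neutrophils, and WT normal lungs had 9.86, 6.73 and 2.67%. The 3 LAIR1KO values were above the 3 WT values, with means of 17.3 ± 5.04% in LAIR1KO and 6.42 ± 3.61% in WT (SD, n = 3). The difference of 10.9 percentage points had the smallest p that 3 against 3 animals allow in a two-sided exact permutation test (p = 0.1, adjusted p = 0.3 over 6 comparisons). LAIR1KO normal replicate 1 rests on 8 of 38 neutrophils, and without it the difference was 9.06 points. LAIR1KO and WT animals also differed here in sex.

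In tumor-bearing lungs the shares were 11.6, 9.15 and 11% in LAIR1KO animals and 14.7, 9.63 and 10.8% in WT animals, which overlapped. The difference in means was -1.11 points (exact permutation p = 0.7, adjusted p = 0.785). Tumor-bearing WT lungs averaged 11.7 ± 2.67% and normal WT lungs 6.42 ± 3.61%, a difference of 5.29 points (exact p = 0.2, adjusted p = 0.3), and 1 of the 3 tumor-bearing values lay below the highest normal value. Tumor-bearing LAIR1KO lungs averaged 10.6 ± 1.3% and normal LAIR1KO lungs 17.3 ± 5.04%, a difference of -6.73 points (exact p = 0.2, adjusted p = 0.3). With animals permuted within tumor state, LAIR1KO exceeded WT by 4.90 points (exact p = 0.125, adjusted p = 0.3). With animals permuted within genotype, tumor-bearing minus normal was -0.72 points (exact p = 0.785). No comparison of the share passed.

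Equal depth changed these shares. With cells thinned to 1000 UMIs the mean shares were 7.07 ± 1.57% in LAIR1KO normal, 7.52 ± 0.405% in LAIR1KO tumor-bearing, 3.49 ± 1.88% in WT normal and 7.37 ± 2.86% in WT tumor-bearing lung (SD, n = 3 each). Neutrophils below 1000 UMIs were left out, 8 of 548, 35 of 610, 4 of 575 and 18 of 489 in the same order. LAIR1KO normal lungs stayed above WT normal lungs, by 3.59 points, with values of 5.26, 7.93 and 8.02% against 4.29, 4.83 and 1.34%. The LAIR1KO values rest on 2 of 38, 23 of 290 and 17 of 212 neutrophils. Those of WT rest on 6 of 140, 10 of 207 and 3 of 224. UMIs were drawn at random only once, so the lowest LAIR1KO value depends on 2 cells of that draw. Tumor-bearing minus normal in LAIR1KO lung became 0.45 points. Interferon-responding neutrophils of LAIR1KO normal lung had a median of 2782 UMIs with all UMIs counted, against 1606 in the other neutrophils of that library, and the gap was smaller in the other 3 libraries (1542 against 1439 UMIs in LAIR1KO tumor-bearing, 2022 against 1964 in WT normal and 1658 against 1545 in WT tumor-bearing lung).

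**Figure D4:**
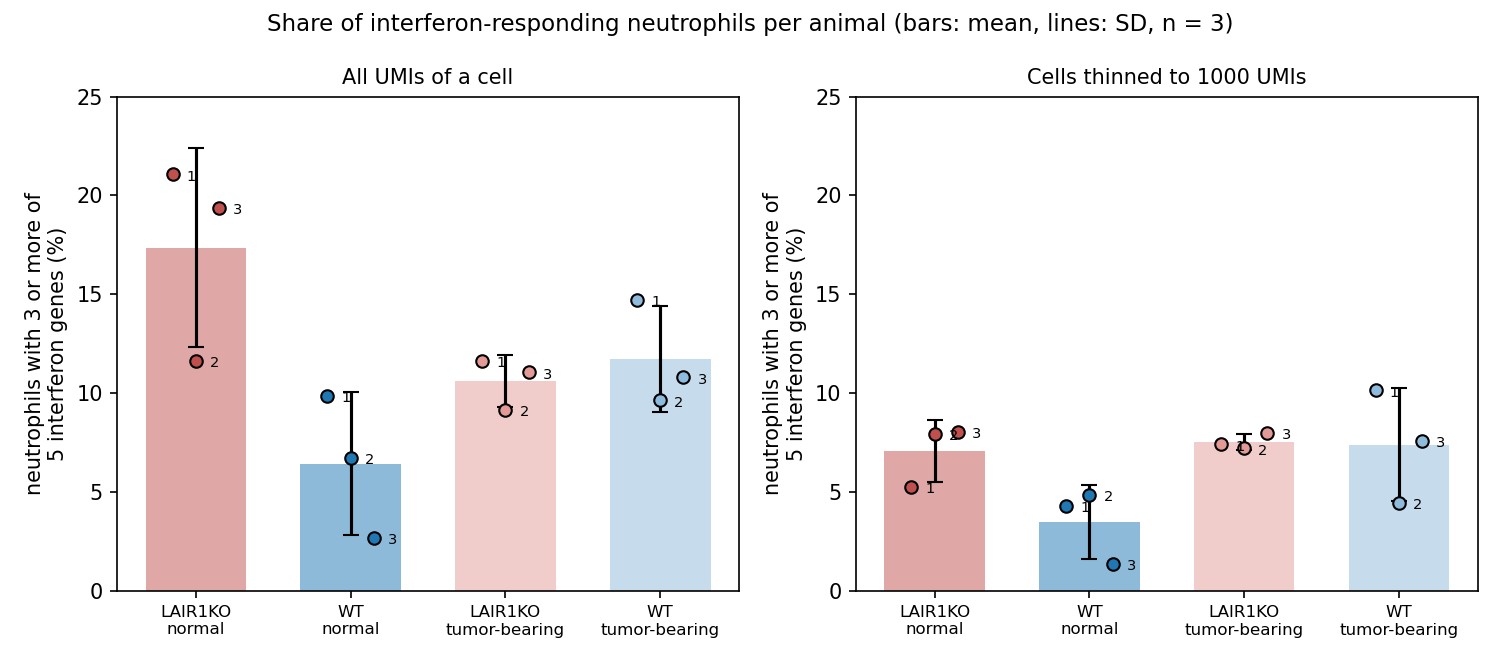
Percentage of neutrophils that contained 3 or more of the 5 interferon genes (y axis) in each animal, numbered by replicate, with all UMIs (left) and with cells thinned to 1000 UMIs (right); bars are means and lines SD of 3 animals. LAIR1KO normal lungs average 17.3% on the left and 7.07% on the right, and WT normal lungs have the lowest mean in both panels.

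Within interferon-responding neutrophils no gene passed between groups. Of 784 genes tested with edgeR's quasi-likelihood test on 3 animals per group, 0 passed (0.0%) in each of 4 comparisons. At an unadjusted p under 0.05 there were 31 genes for LAIR1KO against WT in normal lung, 57 for the same in tumor-bearing lung, 39 for tumor-bearing against normal in LAIR1KO and 60 in WT. DESeq2, run on 11305 genes, called 0 in each as well, with 54, 96, 51 and 70 at an unadjusted p under 0.05. The animals held 6 to 42 interferon-responding neutrophils with 1 hashtag, which limits what could be detected. The rule genes chose these cells, so their levels by group are a description. Isg15 averaged 2874 ± 300.4 CPM in LAIR1KO tumor-bearing, 1605 ± 373 in LAIR1KO normal, 1888 ± 463 in WT tumor-bearing and 2226 ± 363 in WT normal lung (SD, n = 3 each). Rsad2 averaged 1636 ± 704, 1016 ± 310, 868 ± 333 and 1630 ± 286 CPM in the same order. For both genes the tumor-bearing mean was above the normal one in LAIR1KO and below it in WT. Ifit1 had the same order, at 663 against 402 CPM in LAIR1KO and 270 against 493 CPM in WT. The tumor-bearing mean was the higher in both genotypes for Oasl2 (901 against 755 and 1104.5 against 808 CPM) and Ifit3 (146 against 139 and 185 against 159 CPM). The 784 genes include Rsad2, Ifit1, Isg15 and Oasl2 but not Ifit3. Because these genes chose the cells, no test result is read for them.

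Interferon genes were also followed over all neutrophils of an animal, interferon-responding or not, which avoids the threshold. Of 3859 genes tested, 6 passed for LAIR1KO against WT in normal lung (0.155%), 4 in tumor-bearing lung (0.104%), 1 for tumor-bearing against normal in LAIR1KO (0.0259%) and 6 in WT (0.155%), and 6 for genotype averaged over tumor state (0.155%). None of the 74 interferon-related genes tested was among them in any comparison. Sex-linked genes and Lair1 were not excluded from these counts, and only the WT normal animals were male. In normal lung 64 of the 74 were higher in LAIR1KO than in WT neutrophils by their fitted value, with a median log2 of 0.48, and 28 had an unadjusted p under 0.05, all higher. Over all 3859 genes 1918 were above 0, the median was 0.00 and 227 had such a p. The 74 include the 5 rule genes, which did not choose the cells of this comparison. DESeq2, run on 15376 genes, called 1 of 117 interferon-related genes there.

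Slfn5 came closest in that comparison, at 197, 121 and 145 CPM in LAIR1KO normal and 57.3, 47.1 and 52.4 CPM in WT normal lung. The groups did not overlap (log2 1.48 ± 0.29 SE, adjusted p = 0.071). Slfn4 had 346, 647 and 793 CPM in LAIR1KO normal and 325, 306 and 262 CPM in WT normal lung (adjusted p = 0.21). Oas3 averaged 189 ± 16.1 and 101 ± 30.2 CPM in the same groups (SD, n = 3 each; adjusted p = 0.14, edgeR).

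In WT lungs, tumor-bearing against normal, 59 of the 74 genes were higher by their fitted value, with a median log2 of 0.29, and 17 had an unadjusted p under 0.05, 16 of them higher. Over all genes 1941 of 3859 were above 0, the median was 0.00 and 361 had such a p. Rtp4 averaged 253 ± 48.7 CPM in tumor-bearing and 110 ± 27.9 CPM in normal WT lung (log2 1.21 ± 0.23 SE, adjusted p = 0.052, edgeR). Oasl2 had 429, 379 and 416 CPM in tumor-bearing and 213, 186 and 175 CPM in normal WT lung, also at an adjusted p of 0.052. DESeq2 called 5 of its 117 interferon-related genes there. The comparisons in normal lung and within WT share the WT normal animals, which were male. Between LAIR1KO and WT tumor-bearing lungs, matched for sex, the median of the 74 was 0.11, and between tumor-bearing and normal LAIR1KO lungs it was -0.03.

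Cells other than neutrophils give the background for detecting 3 of the 5 genes. Among cells with more than 3 C1q UMIs, which include the macrophages, 5.86% in LAIR1KO normal, 5.78% in LAIR1KO tumor-bearing, 2.84% in WT normal and 5.85% in WT tumor-bearing lung had them, at median depths of 5183 to 6843 UMIs. Among all remaining cells the share was 13.9% in LAIR1KO normal (170 of 1227, exact 95% interval 12.0 to 15.9), 2.68% in LAIR1KO tumor-bearing, 3.74% in WT normal and 4.77% in WT tumor-bearing lung, at depths of 5826 to 9423 UMIs. The median depth of neutrophils was 1447 to 1968 UMIs. At 1000 UMIs a cell, the remaining cells were at 1.07%, 0.423%, 0% (0 of 920, exact upper bound 0.400%) and 0.587% in the same libraries, below the 7.78%, 7.48%, 3.33% and 7.22% of neutrophils. Among remaining cells the LAIR1KO normal library was the highest at both depths. Over all cells other than neutrophils, C1q-positive ones included, its 3 animals had 12.1, 11 and 15% with 3 of the genes at full depth. At 1000 UMIs a cell the same animals had 0.831, 0.946 and 1.23%. These values overlapped LAIR1KO tumor-bearing replicate 2 at 0.998% and WT tumor-bearing replicate 2 at 1.08%. These shares describe single libraries and were not tested.

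**Figure D5:**
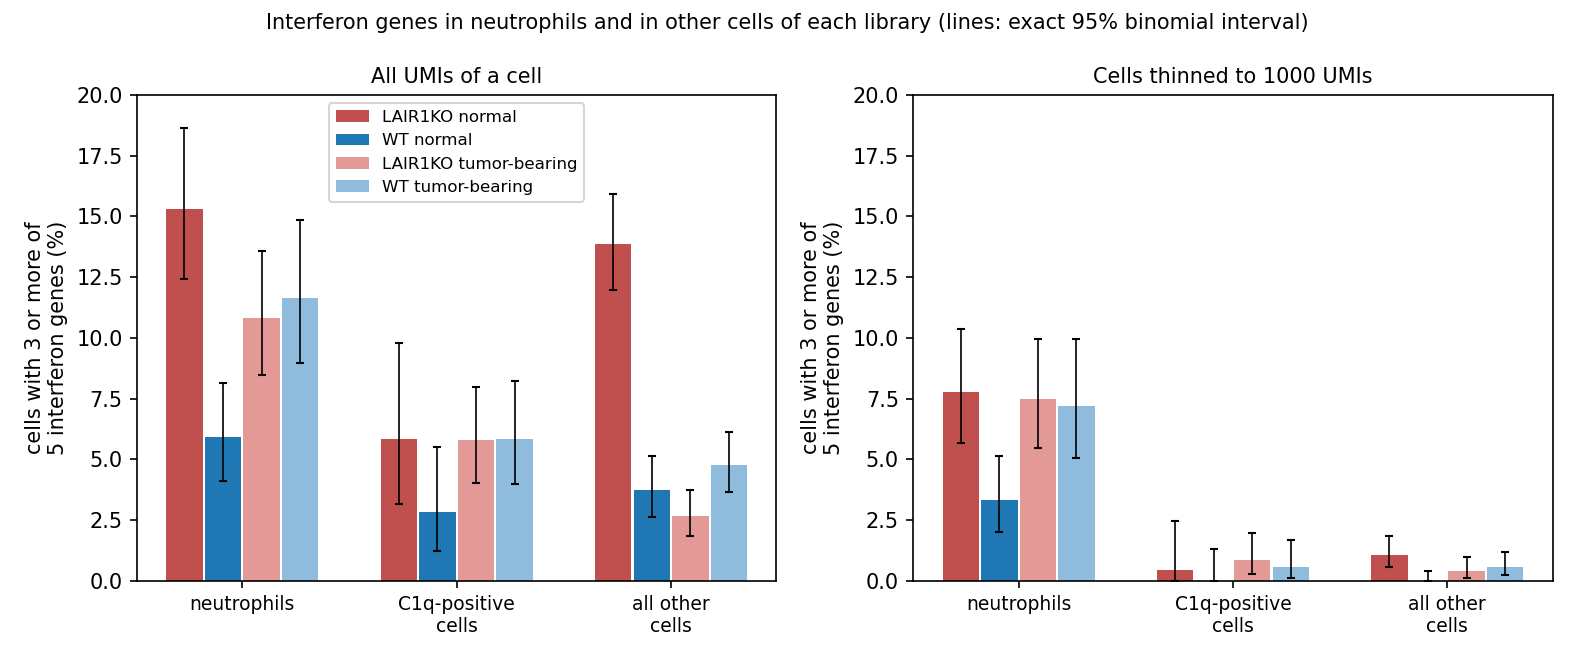
Percentage of cells with 3 or more of the 5 interferon genes (y axis) among neutrophils, cells with more than 3 C1q UMIs and all remaining cells with 1 hashtag (x axis), by library, with all UMIs (left) and thinned to 1000 UMIs (right); lines are exact 95% binomial intervals. At equal depth neutrophils reach 3.33 to 7.78% and the other classes at most 1.07%.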

How the data were processed

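The deposited counts are UMIs per feature and barcode, 1 matrix per library with gene and hashtag antibody rows and no normalization, per the file headers and values. Cell Ranger 4.0.0, STAR, R 4.0.0, Seurat 3.2.0 and mm10 are named in the submitters' processing notes. The members of the population and the gene lists were chosen with earlier results of these data known.

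Cells with at least 300 genes and at most 10% mitochondrial UMIs were kept. Hashtags were assigned per library with HTODemux (Seurat 5.3.0, R 4.3.3, positive quantile 0.99) on all deposited barcodes, and hashtag replicates stood for animals. Doublets were marked with Scrublet (scanpy 1.11.5, Python 3.11.15) and kept except in an alternative. Nothing but the hashtags says how the animals were kept apart. The p-values measure the spread between hashtag replicates, which lie in 1 library for each group, and not a spread between libraries of a group.

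UMIs were summed per animal (at least 5 cells, or 10 over all neutrophils) and tested with edgeR 4.0.16 (quasi-likelihood, TMM, filterByExpr), with DESeq2 1.42.0 as an alternative. For interferon-responding against other neutrophils the animal was the block, because both sums come from the same animal. Genes of the rule were left out of counts of calls in that comparison, and kept in those between groups. Named were the 15 higher and 10 lower genes of smallest p with an adjusted p under 0.05, at least a 1.5-fold change, at least 20 CPM in the higher class and the same direction in 80% of animals, passing over sex-linked, ribosomal, mitochondrial and receptor-variable genes and gene models. Genes given beyond these are the closest by p, or follow the lists, with up to 4 per list by smallest p, and others were chosen after their values were seen. Shares were compared with exact permutation tests over animals, adjusted over 6 comparisons. The gene test was tested on simulated data. Promoter sequences are RefSeq's (GRCm38.p6), of which 33 of the 40 higher genes had an entry. Mx1 and Mx2 were not analysed here. Some other genes, 1 of the named ones among them, are not reported here.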

Additional observations from a re-analysis of the deposited data

Results flagged for a closer look

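The genotype difference in the share of interferon-responding neutrophils was 10.9 percentage points in normal lung and -1.11 points in tumor-bearing lung. The first exceeded the second by 12.0 points, and an exact permutation test with genotypes permuted within tumor state, added after seeing the data, gave p = 0.045 over 400 arrangements (two-sided). Such permutation assumes no genotype difference in either tumor state, so its p does not test whether the 2 differences are equal. The same exact permutation test gave p = 0.02 with at least 2 of the 5 genes (20.6 points). It gave exact p = 0.14 with at least 4 genes (3.71 points) and p = 0.155 with cells thinned to 1000 UMIs (3.44 points). Leaving out 1 animal gave p between 0.025 and 0.095, and the share of LAIR1KO normal replicate 1, at 21.1%, rests on 38 neutrophils. Depth moved with this result, as interferon-responding neutrophils of LAIR1KO normal lung had a median of 2782 UMIs against 1542 in LAIR1KO tumor-bearing lung. The normal WT animals were male and the other 9 animals female, and the part of sex in the difference cannot be told apart from that of the library.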

How the results depend on the processing

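The difference in share between LAIR1KO and WT normal lung kept its sign in each alternative tried, and none of the 6 share comparisons passed after adjustment in any (lowest adjusted p = 0.23, exact permutation tests), with p = 0.04 before it for genotype within tumor state without WT tumor-bearing replicate 1. Tumor-bearing minus normal within genotype turned to 4.06 points with at least 2 of 5 genes, 2.17 points with cells thinned to 1000 UMIs and 2.95 points with hashtags assigned by a 60% rule. LAIR1KO minus WT in tumor-bearing lung turned to 0.041 points with at least 4 of 5 genes and 0.144 points when thinned, and tumor-bearing minus normal in LAIR1KO turned to 0.447 points when thinned. Leaving out 1 animal gave -2.15 to 0.209 points within genotype and -2.15 to 0.394 points for LAIR1KO minus WT in tumor-bearing lung, turning positive without LAIR1KO normal replicate 1 (0.209) or WT normal replicate 1 (0.140) in the first and without WT tumor-bearing replicate 1 (0.394) in the second. The difference of genotype differences was 3.71 points with at least 4 genes, 3.44 when thinned and 9.25 with the 60% rule. Its exact permutation p, which does not test whether the 2 differences are equal, was not under 0.05 in these settings. With 1 animal left out the difference ran from 10.2 to 14.9 points.

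Interferon-responding over other neutrophils gave 40 genes higher and 2 lower in the report. Without the replicate block there were 38 and 2, 35 of the 38 among the 40. Cxcl3 and Mgp, the 2 lower genes of the report, lost their calls there (log2 -0.82 and -1.36), when thinned, on separate UMIs and with the library as a block. DESeq2 gave 74 and 8, the library as a block 63 and 1, no filter on low counts 54 and 165, separate sets of UMIs 17 and 0, thinning 27 and 4 (27 of the 40 could be tested in each), and at least 4 of 5 genes or removed Scrublet doublets 1 lower each. Of the 40, all tested there, 38 stayed higher with DESeq2, 29 with the library as a block and 21 without the filter. With 1 animal left out, 26 to 40 were higher and 0 to 7 lower, the 26 without LAIR1KO normal replicate 3. Mgp turned to log2 0.21 without Scrublet doublets. The cause of these shifts was not tested.

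Between groups within interferon-responding neutrophils, no filter gave 8, 37, 16 and 14 calls in the order of the report, the 60% rule 2 for genotype in normal lung and 4 for tumor in WT, and leaving out LAIR1KO tumor-bearing replicate 1 gave 1 in 2 comparisons (range 0 to 1). Interferon genes over all neutrophils had 0 calls among the 74 in the report, and the number tested differed by setting. No filter (117 genes) gave 5 calls each for genotype in normal lung, averaged genotype and both tumor comparisons. It gave 2 for genotype in tumor-bearing lung. The 60% rule (88 genes) gave 3, 1 and 5 for genotype in normal lung, averaged genotype and tumor in WT. For genotype in normal lung and tumor in WT, DESeq2 (117 genes) gave 1 and 5. Fits on the compared groups alone (76 and 63 genes) gave 1 and 3 for the same comparisons. Leaving out 1 animal gave 0 to 3 for genotype in normal lung, 0 to 1 averaged and 0 to 5 for tumor in WT, each highest without LAIR1KO normal replicate 1. No paired analysis was possible for the groups because the 4 groups are different animals and equal hashtag numbers join none of them.

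In other cells the share with the genes was 16.2, 16.0, 10.6 and 15% (C1q-positive) and 28.9, 8.76, 8.32 and 11.3% (remaining cells) with at least 2 genes, for LAIR1KO normal, LAIR1KO tumor-bearing, WT normal and WT tumor-bearing lung, and 0.450, 0.852, 0 and 0.586%, and 1.07, 0.423, 0 and 0.587%, when thinned. The number of interferon-responding cells per animal and their depth limit all of these tests.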
